A study of Mus musculus with 6 samples.

Results

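Amino acids cross the membranes of mouse cells through solute carriers, and the transcripts of these carriers were compared here between mouse embryonic stem cells (mESCs) and cardiac precursor cell cultures (CPCCs) by bulk RNA-seq. The members were all genes of either deposited table whose symbol begins with Slc1a, Slc3a, Slc6a, Slc7a, Slc36a, Slc38a or Slc43a followed by a number, which gave 46 of the 16279 genes in either table. Of the 46, 34 were in both tables, 7 were in the CPCC table only and 5 were in the mESC table only. Slc7a6os matches the symbol rule but is a gene that lies beside Slc7a6 on the other strand and encodes no transporter, which leaves 45 transporters.

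All cells were male and carried a C57BL/6J maternal and a CAST/EiJ paternal genome. The mESCs were 3 clones from 3 blastocysts, grown without feeders in serum with LIF and the inhibitors PD0325901 and CHIR99021, with added glutamine and non-essential amino acids. The CPCCs were derived from these clones through hanging drops and embryoid bodies in medium with ascorbic acid and were then passaged in medium with EGF and Fgf2. They are mixed cultures. Their medium also held serum and non-essential amino acids, with Glutamax in place of glutamine. Cell type and medium therefore cannot be told apart in any comparison below. There were 3 libraries per cell type, S01 to S03 from mESCs and S04 to S06 from CPCCs, and the labels do not say which clone gave which library. Each mESC library held 6442639 to 6907330 estimated counts, and each CPCC library 8468819 to 11436062.

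The labels were compared with marker genes of the cell types. The summed level of the 6 pluripotency genes on the list, all in both tables, was 2017 to 2568 CPM (counts per 1000000 counts of the library after scaling) in the mESC libraries and 104 to 169 CPM in the CPCC libraries. The 10 cardiac precursor genes summed to 4.41 to 6.33 CPM in mESCs and to 142, 48.9 and 62.8 CPM in S04, S05 and S06, with Tbx5 missing from the CPCC table. In CPCCs the 8 genes of fibroblasts and mesenchyme summed to 6027 to 9212 CPM, the 6 neural genes to 567 to 593 CPM, the 6 endoderm genes to 51.1 to 74.6 CPM and the 4 endothelial genes to 6.31 to 21.5 CPM. Neurog2 of the neural list, Tie1 of the endothelial list and Afp and Ttr of the endoderm list were in neither table. Of the genes on these lists, Hand1, Hand2, Kdr, Mef2c, Nkx2-5, Col1a2, Col3a1, Lum, Postn, Prrx1, Twist1, Pax6, Cxcr4 and Cdh5 were missing from the mESC table. The mESC libraries held 7.72 to 12.6 CPM of the mesenchymal list, 41.9 to 47.8 CPM of the neural list, 1.70 to 7.17 CPM of the endoderm list and 92.3 to 101 CPM of the endothelial list. These lists move with the cell type label, and their part in the results on the transporters was not tested. In bulk RNA, fewer cells of a type and less RNA per cell cannot be told apart.

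Amino acid transporters work as uniporters, as exchangers that swap an amino acid inside the cell for another outside, or as carriers driven by the sodium or proton gradient. The heteromeric exchangers pair a glycoprotein heavy chain, which brings the complex to the plasma membrane, with a light chain that sets which amino acids are carried. Several of these genes are known targets of the transcription factor ATF4, which is made when amino acids run short. Mouse embryonic stem cells are known for their high demand for threonine.

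Within the cationic SLC7, the SLC1, the SLC43 and the SLC6 families some members were higher and others lower in CPCCs. Of the 46 members, 32 passed the filter on low counts and were tested with edgeR's quasi-likelihood test at a Benjamini-Hochberg adjusted p under 0.05. In CPCCs 12 were higher and 8 were lower, Slc7a6os among the lower ones, and 12 did not pass. Without mESC library S02, 5 were lower. The 20 members called are 62.5% of those tested, beside 61.4% of all 12471 genes tested, and the shares by direction were 37.5% higher and 25% lower beside 31.7% and 29.7% of all genes. At least 2-fold changes were called for 11 of the 32 members upward and 6 downward, and the shares over all genes were 25.5% and 19.5%. The cell types did not overlap for 22 members, or 68.8%, beside 69.7% of all genes. The share of members called in either direction and the share without overlap are thus near those of all genes. Nothing about the families is read from the counts. The median log2 fold change of the members tested was 0.40, beside 0.031 over all genes, and it was 0.04 without library S04. At an unadjusted p under 0.05, 23 members passed. Slc1a7 and Slc38a5 were in both tables but too low to be tested.

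**Figure D1:**
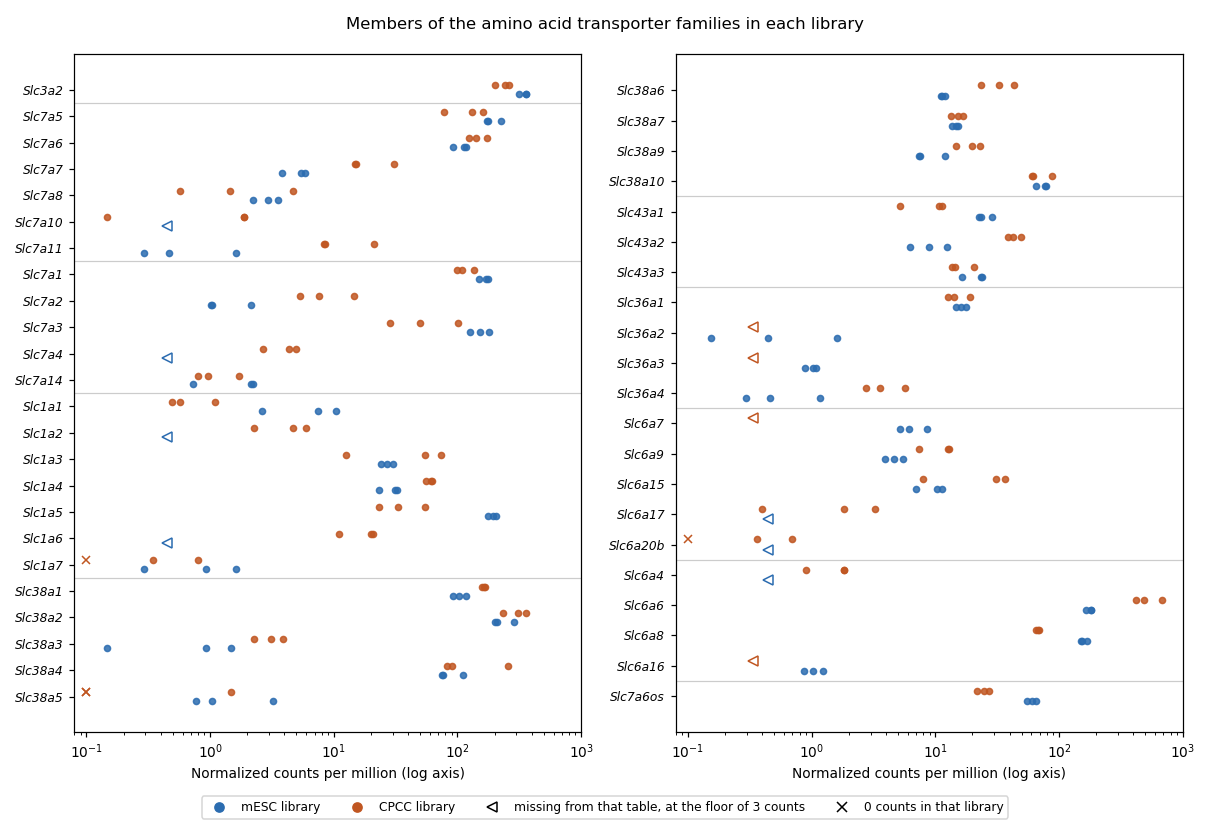
The levels of 45 members in each library, in normalized CPM on a log axis, with mESC libraries in blue and CPCC libraries in orange; triangles stand for a gene missing from that table, drawn at the mean level of 3 counts, crosses for 0 counts, and grey lines separate the families. Slc1a5, Slc6a8 and Slc43a1 have all blue points right of the orange ones, and Slc6a6, Slc43a2 and Slc7a11 have them all left.

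Promoter sequences are shown for the members whose windows around the start hold a C/EBP-ATF response element. This is the short sequence through which ATF4 is known to act. Each of the 3 members with it was called higher in CPCCs (below), beside 37.5% of the members tested and 31.7% of all genes tested. The share over all genes whose windows hold the element was not determined. RefSeq windows on GRCm38.p6, from 250 bases before to 50 bases after each start, were found for 32 of the 46 members and comprised 44 windows. The element was searched as TGATGNAAN on both strands and was found in 4 of the 44 windows (9.09%), beside 3.95% of all 32851 RefSeq windows and 2.38% of the windows of genes in the tables. These 4 windows belong to Slc7a11, Slc1a4 and, with 2 windows, Slc7a7. The stretches below run 5′ to 3′ on the minus strand, from 150 bases before to 20 bases after the start, and the capitals mark each match on either strand.
Slc7a11, chr3:50443594-50443763: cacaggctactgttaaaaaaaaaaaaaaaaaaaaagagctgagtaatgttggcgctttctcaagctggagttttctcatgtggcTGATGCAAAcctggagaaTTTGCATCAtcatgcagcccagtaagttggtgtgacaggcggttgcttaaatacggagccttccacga
Slc1a4, chr11:20332694-20332863: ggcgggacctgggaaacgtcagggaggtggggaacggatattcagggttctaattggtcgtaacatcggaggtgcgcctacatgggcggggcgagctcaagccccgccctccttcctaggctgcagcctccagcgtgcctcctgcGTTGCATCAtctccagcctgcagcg
Slc7a7, chr14:54417925-54418094: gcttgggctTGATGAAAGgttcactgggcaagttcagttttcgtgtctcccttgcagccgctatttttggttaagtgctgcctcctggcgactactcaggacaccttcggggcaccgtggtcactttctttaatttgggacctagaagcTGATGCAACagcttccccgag
In Slc7a11 the matches lie at -66 to -58 and at -48 to -40 from the start, counted with no base 0. In Slc1a4 the match spans the start from -5 to 4, and in Slc7a7 the matches lie at -141 to -133 and at -1 to 8. The second of these is also the match in the other Slc7a7 window, where it begins at -243 from a start further downstream. No match says only that these letters are not in the window, and a match is a description of the letters and not of binding. The 14 members without a window include Slc1a5, Slc36a2, Slc38a1, Slc38a3, Slc43a3, Slc6a15, Slc6a6, Slc6a7, Slc6a8, Slc7a2, Slc7a3, Slc7a4 and Slc7a5. The other motifs searched did not overlap these matches. The E-box CACGTG was in 8 of the 44 windows (18.2%), beside 7.15% of all windows and 9.45% of those of genes in the tables. The antioxidant response element TGACNNNGC was in 9 windows of 7 members (20.5%), beside 12.4% and 14.2%. The GC box GGGCGG was in 65.9%, beside 35.7% and 58.6%.

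The heavy chain gene Slc3a2 fell, and the light chain genes called rose. Slc3a2 (chr19:8706882-8723370, minus strand, positions as in the tables on GRCm38) encodes the heavy chain of most heteromeric exchangers, also known as CD98 or 4F2. Its level was 316, 359.7 and 358 CPM in the mESC libraries against 203, 259.9 and 244 CPM in the CPCC libraries. All CPCC libraries lay below all mESC libraries, a 1.46-fold fall (log2 fold change -0.55, SE 0.16, edgeR adjusted p = 0.0141), which missed the threshold without mESC library S02 (edgeR adjusted p = 0.0608, in a range of 0.00361 to 0.0608 over all alternatives). Slc3a1, the other heavy chain, was in neither table.

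Of the light chains, 2 rose, none fell and 3 of the 5 tested did not pass. Slc7a11 (chr3:50364936-50443614, minus strand) encodes xCT, which takes up cystine in exchange for glutamate and so supplies cysteine for glutathione. Its estimated counts were 3, 11 and 2 in the mESC libraries against 213, 69 and 74 in the CPCC libraries, or 0.463, 1.62 and 0.293 CPM and 21.2, 8.37 and 8.48 CPM. The rise was 15.7-fold (log2 fold change 3.97, SE 0.68, edgeR adjusted p = 0.000935), library S04 lay over 2-fold above the other CPCC libraries, and without mESC library S02 the log2 fold change was 5.03. Slc7a7 (chr14:54369442-54417703, minus strand), which encodes y+LAT1 and exchanges cationic for neutral amino acids, had 5.42, 3.84 and 5.87 CPM in mESCs against 14.8, 15.01 and 30.7 CPM in CPCCs. It rose 3.998-fold (log2 fold change 1.999, SE 0.38, edgeR adjusted p = 0.0017). Its exons share 232 bases with Oxa1l on the opposite strand, which fell from between 114 and 133 CPM to between 47.4 and 63.8 CPM. The kit used does not mark strand, so reads from bases shared by the counted gene models cannot be told apart. Shared bases are given here and below from the GENCODE M21 annotation, which may differ from the gene models that were counted.

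Slc7a5 (chr8:121881146-121907687, minus strand) encodes LAT1, the exchanger that brings in leucine and other large neutral amino acids. It had 174, 177 and 225 CPM in mESCs against 77.6, 132 and 161 CPM in CPCCs. The groups did not overlap, but the difference missed the threshold (log2 fold change -0.64, SE 0.26, edgeR adjusted p = 0.0585), and over the alternatives the adjusted p ranged from 0.0175 to 0.183, passing with DESeq2, without library S06 and with missing genes at 3 counts. Slc7a6, the y+LAT2 light chain, pointed the other way, with 92.4, 118 and 113 CPM in mESCs against 123, 142 and 173 CPM in CPCCs (log2 fold change 0.43, SE 0.19, edgeR adjusted p = 0.0695), and passed without library S04 and with the stricter filter (adjusted p over all alternatives 0.0106 to 0.244). Slc7a8, the LAT2 light chain, ranged from 2.21 to 3.55 CPM in mESCs and from 0.573 to 4.67 CPM in CPCCs, with overlap. Slc7a10, an exchanger of small neutral amino acids, was listed only in the CPCC table at 0.148, 1.87 and 1.88 CPM, at least 2.91-fold above the level of 3 counts per library in mESCs, and shares 377 exonic bases with Lrp3 on the opposite strand, which rose from between 3.24 and 6.95 CPM to between 8.401 and 21.8 CPM.

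Levels of different genes were set side by side only per kilobase of exon (RPKM). Slc7a5 made up 63.5% to 69.03% of the summed light chain RPKM in the mESC libraries and 38.2% to 48.8% in the CPCC libraries. Slc7a6 went from between 28.3% and 34.2% to between 41.01% and 49.1% and Slc7a7 from between 1.54% and 2.36% to between 6.22% and 10.04%, whereas Slc7a11 stayed under 3% of the sum in every library despite its large fold. The summed light chain RPKM was 77.5 ± 9.36 in mESCs and 73.2 ± 18.6 in CPCCs (SD, n = 3 each). Divided by the Slc3a2 RPKM of the same library, the sum was 0.775, 0.740 and 0.865 in mESCs and 0.955, 0.988 and 1.33 in CPCCs. These ratios did not overlap between the cell types, and no test was run on sums over members.

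Among the cationic transporters of the SLC7 family, the 2 most abundant fell and the low Slc7a2 rose. Slc7a1 (chr5:148327410-148399905, minus strand) and Slc7a3 (chrX:101079210-101085406, minus strand) encode CAT1 and CAT3, which carry arginine, lysine and ornithine. Slc7a3 had 152, 179.6 and 127 CPM in mESCs against 28.6, 49.8 and 101 CPM in CPCCs, a 2.55-fold fall (log2 fold change -1.35, SE 0.39, edgeR adjusted p = 0.0149) with a 3.53-fold spread among the CPCC libraries. Without CPCC library S06 its log2 fold change was -1.96. It missed the threshold without CPCC library S05 or mESC library S02 (edgeR adjusted p = 0.0573 and 0.0533, in a range of 0.000489 to 0.0573 over all alternatives). Slc7a1 had 171, 150.5 and 176 CPM in mESCs against 136, 109 and 99.2 CPM in CPCCs. Its 1.44-fold fall (log2 fold change -0.53, SE 0.18, edgeR adjusted p = 0.0262) was lost in 5 of the 6 fits that left out a library, each except the one without S04 (adjusted p over all alternatives 0.00235 to 0.0913). Slc7a2, which encodes CAT2, had 2.16, 1.03 and 1.02 CPM in mESCs against 5.37, 14.6 and 7.56 CPM in CPCCs and rose 6.47-fold (log2 fold change 2.69, SE 0.56, edgeR adjusted p = 0.00263).

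Slc7a4 was listed only in the CPCC table, at 2.68, 4.97 and 4.35 CPM, at least 8.94-fold above 3 counts per library in mESCs. In GENCODE M21 it shares 554 exonic bases with P2rx6 on the opposite strand, which was likewise listed in CPCCs only, at 2.19 to 2.91 CPM. By the deposited positions Slc7a4 and P2rx6 do not overlap. Slc7a14 was low in both cell types (0.731 to 2.21 and 0.795 to 1.72 CPM) and did not pass. The summed RPKM of the 5 genes was 55.4, 60.9 and 48.96 in the mESC libraries against 20.7, 25.5 and 37.4 in the CPCC libraries, without overlap. Slc7a3 held 68.5% to 78.0% of this sum in mESCs and 36.6%, 51.6% and 71.5% in S04, S05 and S06. Its share in S06 thus lay within the mESC range, and in S04 Slc7a1 was the more abundant of the pair per kilobase.

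**Figure D2:**
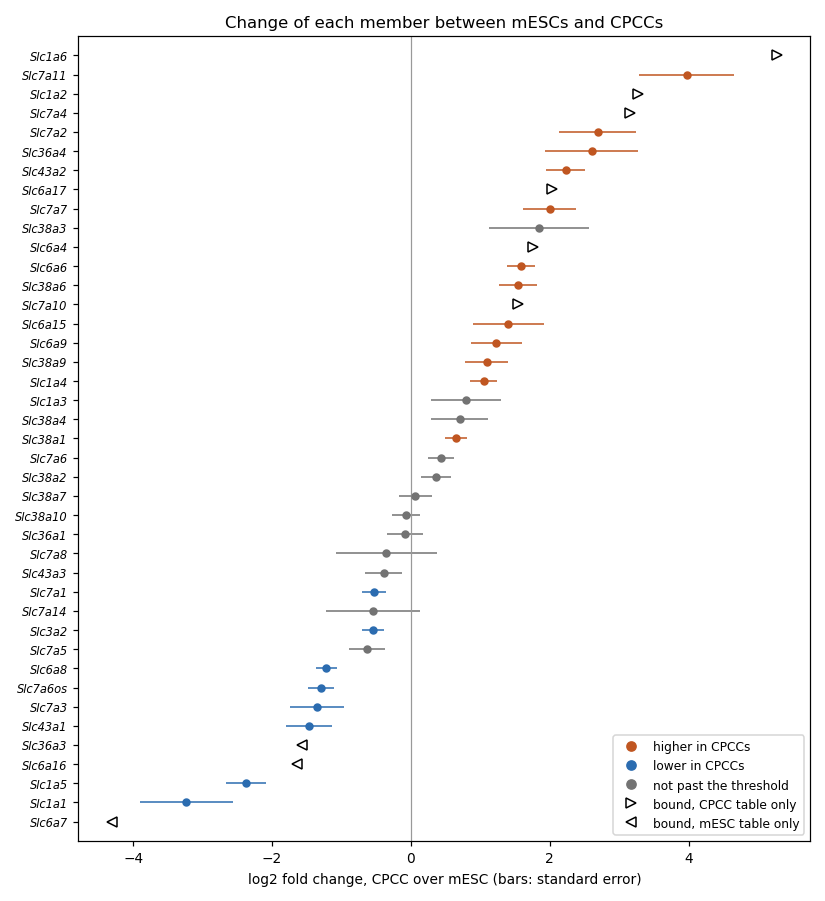
Log2 fold change of CPCCs over mESCs with its standard error for the 32 members tested, and open triangles for the bounds of 9 genes in 1 table only, ordered by size. Slc7a11 is highest among the tested members at 3.97 and Slc1a1 lowest at -3.23, and the bounds of Slc1a6 and Slc6a7 lie outermost on either side.

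The SLC1 family changed its leading member. Slc1a5 (chr7:16781346-16798275, plus strand) encodes ASCT2, an exchanger of glutamine and other neutral amino acids, and Slc1a4 (chr11:20302180-20332714, minus strand) encodes ASCT1, which exchanges alanine, serine, cysteine and threonine. Slc1a5 had 192, 205 and 178 CPM in the mESC libraries against 23.3, 32.9 and 54.7 CPM in the CPCC libraries. It fell 5.19-fold (log2 fold change -2.38, SE 0.29, edgeR adjusted p = 0.000148), the lowest adjusted p among the members. Slc1a4 went the other way, from 32.3, 23.1 and 31.6 CPM to 56.1, 62.1 and 61.5 CPM, a 2.07-fold rise (log2 fold change 1.05, SE 0.20, edgeR adjusted p = 0.00159). Per kilobase, Slc1a5 held 77.3% to 81.97% of the family's sum in mESCs and 17.9% to 30.3% in CPCCs, and Slc1a4 held 9.83% to 14.6% and 36.2% to 45.95%. In every mESC library Slc1a5 was above Slc1a4 per kilobase, and in every CPCC library it was below. The RPKM of both genes together was 53.3 ± 2.28 in mESCs and 24.1 ± 4.48 in CPCCs (SD, n = 3 each).

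The glutamate transporters of the family, which drive uptake with the sodium gradient and clear glutamate at synapses, differed member by member. Slc1a1 (chr19:28835166-28913961, plus strand), the neuronal and epithelial carrier EAAC1, had 2.63, 7.502 and 10.4 CPM in mESCs against 0.497, 1.09 and 0.573 CPM in CPCCs. It fell 9.41-fold (log2 fold change -3.23, SE 0.67, edgeR adjusted p = 0.00259), on 17, 51 and 71 counts against 5, 9 and 5. In GENCODE M21 its exons share 2631 bases with 4430402I18Rik on the opposite strand, which was listed only in CPCCs at 0.201 to 0.707 CPM. By the deposited positions Slc1a1 and 4430402I18Rik do not overlap. Slc1a6 (chr10:78780496-78814826, plus strand), known from Purkinje cells, was listed only in the CPCC table, at 19.98, 20.9 and 11.1 CPM. This is at least 38.7-fold above 3 counts per library in mESCs, the largest bound of any member. Slc1a2, the main glial carrier of the forebrain, was also listed only in CPCCs, at 2.29, 4.73 and 5.96 CPM, at least 9.66-fold higher.

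Slc1a3, which encodes the glial carrier GLAST, depended on a single library. It had 24.3, 30.01 and 27.1 CPM in mESCs against 12.5, 54.4 and 74.3 CPM in CPCCs, so that S04 lay below all mESC libraries while S05 and S06 lay above them. The difference did not pass (log2 fold change 0.79, SE 0.51, edgeR adjusted p = 0.203). Without S04 it passed, at a log2 fold change of 1.26 (edgeR adjusted p = 0.000189, in a range of 0.000189 to 0.624 over all alternatives). The neural marker list was at 573, 593 and 567 CPM in S04, S05 and S06, and its part in the spread of Slc1a3 was not tested. Slc1a7, a retinal carrier, had at most 11 counts in any library and was not tested.

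**Figure D3:**
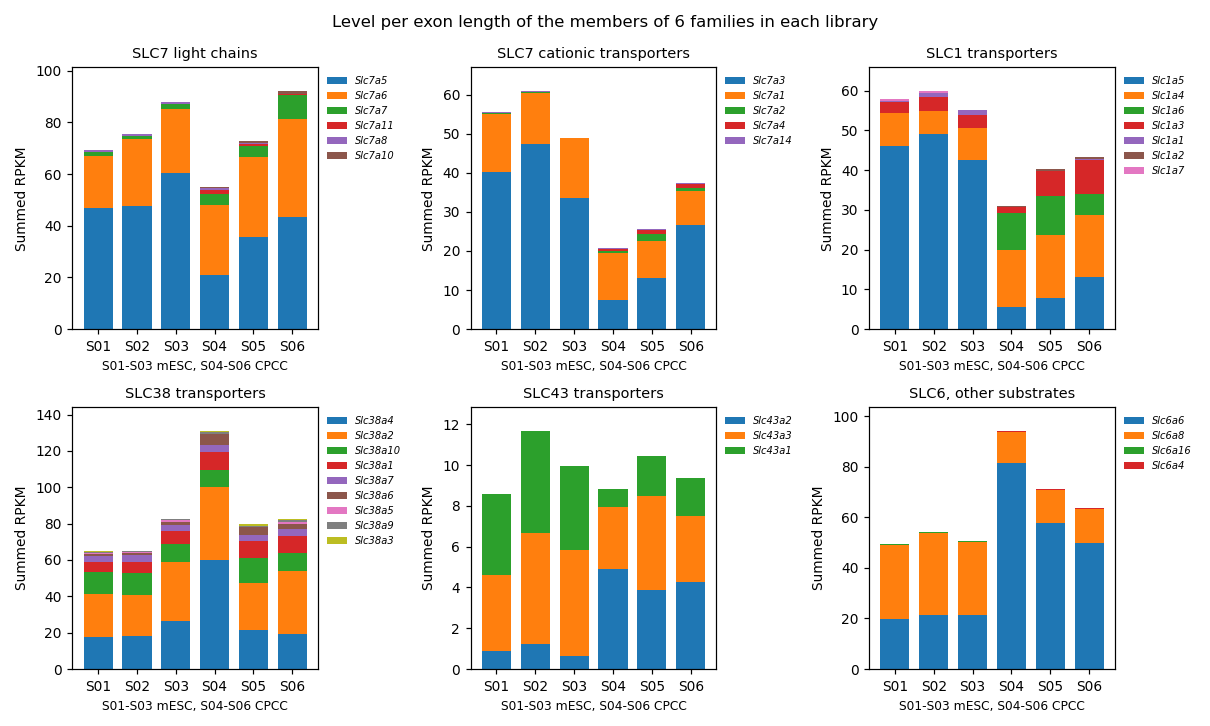
Summed RPKM (CPM per kilobase of exon) of 6 families in each library, stacked by the members reported, with S01 to S03 from mESCs and S04 to S06 from CPCCs. Slc1a5 fills most of the SLC1 bars in mESCs and a minor share in CPCCs, and Slc6a6 fills most of the last panel in CPCCs.

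Among the sodium-coupled neutral amino acid transporters of SLC38, 3 rose, none fell and 5 of the 8 tested did not pass. Slc38a1 and Slc38a2 encode SNAT1 and SNAT2, which load cells with glutamine, alanine and proline, and Slc38a4 encodes a further carrier of this kind that is known as an imprinted gene. The 3 genes lie next to each other on chromosome 15, with gaps of 44478 and 295094 bases. Slc38a1 (chr15:96571418-96642914, minus strand) had 91.9, 103 and 117 CPM in mESCs against 168, 159 and 163 CPM in CPCCs, a 1.57-fold rise (log2 fold change 0.65, SE 0.16, edgeR adjusted p = 0.0064). Slc38a2 (chr15:96687392-96699729, minus strand) had 211, 199.6 and 288 CPM in mESCs against 356, 232 and 308 CPM in CPCCs, which overlapped (log2 fold change 0.36, SE 0.21, edgeR adjusted p = 0.17). Slc38a4 had 74.6, 76.6 and 111 CPM in mESCs against 255, 90.7 and 82.4 CPM in CPCCs. Only S04 was above all mESC libraries, the difference did not pass (log2 fold change 0.71, SE 0.41, edgeR adjusted p = 0.164), and without S04 the log2 fold change was -0.0033. The tables are not split by allele, so the parental origin of these transcripts was not analysed here.

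Slc38a6 (chr12:73286848-73354046, plus strand), an orphan transporter of the family, had 11.9, 11.2 and 11.3 CPM in mESCs against 43.7, 32.98 and 23.4 CPM in CPCCs. It rose 2.91-fold (log2 fold change 1.54, SE 0.27, edgeR adjusted p = 0.00112). Slc38a9 (chr13:112660766-112738753, plus strand) encodes a lysosomal protein that senses arginine for mTORC1. Its level was 12.05, 7.502 and 7.46 CPM in mESCs against 22.96, 14.7 and 19.8 CPM in CPCCs, a 2.13-fold rise (log2 fold change 1.09, SE 0.31, edgeR adjusted p = 0.0133). It missed the threshold without mESC library S02 (edgeR adjusted p = 0.0531, in a range of 0.0044 to 0.0531 over all alternatives). Slc38a7, a lysosomal glutamine carrier, and Slc38a10 did not pass, with log2 fold changes of 0.07 (SE 0.24) and -0.07 (SE 0.20). Slc38a3, a glutamine carrier of liver and kidney, was low at 0.927, 1.47 and 0.146 CPM in mESCs against 2.29, 3.88 and 3.09 CPM in CPCCs and lay just outside the threshold (log2 fold change 1.84, SE 0.72, edgeR adjusted p = 0.0508, with adjusted p from 0.0356 to 0.142 over the alternatives). Slc38a5 had 5, 7 and 22 counts in mESCs and 0, 0 and 13 in CPCCs and was not tested.

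In the SLC43 family a member rose, another fell, and the direction of the summed level depended on whether genes were weighted by length. Slc43a1 (chr2:84839408-84863587, plus strand) and Slc43a2 (chr11:75531694-75577573, plus strand) encode LAT3 and LAT4, uniporters of leucine and other branched-chain or aromatic amino acids, while Slc43a3 is known to carry purine nucleobases. Slc43a1 had 22.7, 28.7 and 23.5 CPM in mESCs against 5.17, 11.3 and 10.7 CPM in CPCCs, a 2.77-fold fall (log2 fold change -1.47, SE 0.33, edgeR adjusted p = 0.00389). Slc43a2 had 8.96, 12.5 and 6.29 CPM in mESCs against 49.1, 38.8 and 42.6 CPM in CPCCs, a 4.699-fold rise (log2 fold change 2.23, SE 0.28, edgeR adjusted p = 0.000169). Slc43a3 ranged from 16.5 to 24.1 CPM in mESCs and from 13.6 to 20.6 CPM in CPCCs and did not pass (edgeR adjusted p = 0.235), and it lies 73059 bases from Slc43a1. The family's summed RPKM was 10.1 ± 1.55 in mESCs and 9.56 ± 0.821 in CPCCs (SD, n = 3 each), and the Slc43a2 share of it was 6.29% to 10.7% and 36.96% to 55.3%. In CPM the sum was 48.2, 65.3 and 53.1 for mESCs against 67.9, 70.7 and 67.8 for CPCCs, which all lay above those of mESCs, while in RPKM the libraries overlapped.

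In the proton-coupled SLC36 family the most abundant member did not pass and a low one rose. Slc36a1, the lysosomal carrier PAT1, had 14.7 to 17.8 CPM in mESCs and 12.7 to 18.99 CPM in CPCCs (log2 fold change -0.08, SE 0.26, edgeR adjusted p = 0.795). Slc36a4 (chr9:15709769-15738790, plus strand), a high-affinity carrier of proline and tryptophan, had 0.463, 0.294 and 1.17 CPM in mESCs, on 3, 2 and 8 counts, and 3.58, 5.699 and 2.75 CPM in CPCCs, and rose 6.09-fold (log2 fold change 2.61, SE 0.67, edgeR adjusted p = 0.00826). Without mESC library S03 its log2 fold change was 3.35. Slc36a2 and Slc36a3, which neighbour Slc36a1 on chromosome 11, were listed only in the mESC table, at 0.154, 0.441 and 1.61 CPM and 1.08, 0.883 and 1.02 CPM, and Slc36a3 was at least 2.97-fold lower in CPCCs. No fold is given for Slc36a2, which had 1, 3 and 11 counts: without S03 its mean of 0.298 CPM lies below the level of 3 counts in CPCCs.

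Both SLC6 transporters of amino acids that were tested rose, and others were listed in 1 cell type only. Slc6a9 (chr4:117835258-117869306, plus strand) encodes the glycine transporter GLYT1. Its level was 4.63, 5.44 and 3.95 CPM in mESCs against 7.36, 12.98 and 12.7 CPM in CPCCs, a 2.35-fold rise (log2 fold change 1.23, SE 0.36, edgeR adjusted p = 0.016) that was lost in 3 of the 6 fits that left out a library, without S03, S05 or S06 (adjusted p over all alternatives 0.0033 to 0.0653). In GENCODE M21 it shares 1429 exonic bases with Ccdc24, listed only in CPCCs at 1.21 to 1.79 CPM, and 46 with B4galt2. Both lie on the opposite strand, and B4galt2 rose from between 3.24 and 4.85 CPM to between 18.4 and 24.5 CPM. By the deposited positions only the end of Slc6a9 overlaps Ccdc24, and B4galt2 lies outside Slc6a9. Slc6a15 (chr10:103367808-103419380, plus strand), a carrier of branched-chain amino acids and proline, had 11.3, 10.3 and 7.02 CPM in mESCs against 7.95, 31.04 and 36.9 CPM in CPCCs. It was called higher (log2 fold change 1.40, SE 0.51, edgeR adjusted p = 0.0368) although S04 lay within the mESC range, and the call was lost in 5 of the 6 fits that left out a library, each except the one without S04 (adjusted p over all alternatives 8.07e-05 to 0.126). Slc6a7, the brain proline transporter, was listed only in the mESC table, at 6.18, 5.15 and 8.63 CPM, and was at least 19.8-fold lower in CPCCs. Slc6a17, a vesicular carrier of neurons, was listed only in CPCCs at 0.398, 3.27 and 1.83 CPM, at least 4.098-fold higher, or 2.49-fold without S05. Slc6a20b had 7, 3 and 0 counts in the CPCC libraries, which is at the level of 3 counts, and no fold is given.

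The SLC6 transporters of other substrates held the most abundant riser and a fall. Slc6a6 (chr6:91684067-91759064, plus strand) encodes the taurine transporter, and taurine is abundant in heart and other muscle. It had 167, 182 and 180.2 CPM in the mESC libraries against 688, 487 and 420.4 CPM in the CPCC libraries, a 3.01-fold rise (log2 fold change 1.59, SE 0.20, edgeR adjusted p = 0.00017). Slc6a8 (chrX:73673133-73682501, plus strand) encodes the creatine transporter. Its level was 153, 167 and 151 CPM in mESCs against 65.01, 67.9 and 69.7 CPM in CPCCs, a 2.33-fold fall (log2 fold change -1.22, SE 0.15, edgeR adjusted p = 0.000157), and the CPCC libraries lay within 1.07-fold of each other. Slc6a6 held 38.9% to 41.4% of the summed RPKM of this group in mESCs and 78.3% to 86.5% in CPCCs. Slc6a16, an orphan, was listed only in mESCs at 0.878 to 1.24 CPM, and Slc6a4, the serotonin transporter, only in CPCCs at 0.895 to 1.83 CPM, with bounds of 3.12-fold and 3.38-fold.

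Slc7a6os, the member that is no transporter, lies 1733 bases beyond the end of Slc7a6 and is transcribed towards it. It fell from 55.1, 60.9 and 64.8 CPM to 21.8, 24.6 and 27.05 CPM (log2 fold change -1.30, SE 0.19, edgeR adjusted p = 0.000324), while Slc7a6 pointed upward. The annotation used shows no exonic bases shared by the pair. In GENCODE M21, Slc1a2, Slc38a9, Slc38a10, Slc43a2, Slc6a6 and Slc7a2 share 117 to 922 exonic bases with genes on the opposite strand. Those genes are not annotated as protein coding. Slc6a20b shares 1800 there with Sacm1l, though by the deposited positions Slc6a20b and Sacm1l do not overlap.

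Summed over the 45 transporters, the level was 429 ± 21.95 RPKM in mESCs and 398 ± 12.9 RPKM in CPCCs (SD, n = 3 each), and 2205 ± 112 CPM and 2370.5 ± 139 CPM. The direction of the difference between the cell types thus depended on whether genes were weighted by length. In both cell types a few genes held most of the sum. The 8 highest transporters made up 78.5% of the RPKM in mESCs and 73.6% in CPCCs, and 6 of the 8 were shared. In mESCs the order per kilobase was Slc3a2 at 97.7 ± 7.02 RPKM, Slc7a5 at 51.8 ± 7.67 RPKM, Slc1a5 at 45.9 ± 3.19 RPKM and Slc7a3 at 40.4 ± 6.96 RPKM (SD, n = 3), followed by Slc6a8, Slc38a2, Slc7a6 and Slc6a6 at 30.2, 26.3, 23.6 and 20.9 RPKM. Beneath Slc3a2, neighbours in this order lay closer together than the sum of their SDs, except for Slc7a3 and Slc6a8. In CPCCs Slc3a2 led at 66.7 ± 8.35 RPKM, with Slc6a6 at 62.9 ± 16.5 RPKM, which lay within its SD of Slc3a2. Slc38a2, Slc38a4, Slc7a5 and Slc7a6 followed at 33.8, 33.5, 33.3 and 31.9 RPKM and were not separable by their spread, which for Slc38a4 was an SD of 22.8 RPKM with S04 far above S05 and S06, and Slc7a3 and Slc1a4 came next at 15.8 and 15.3 RPKM. Slc1a5 and Slc6a8 belonged to the 8 highest in mESCs only, and Slc1a4 and Slc38a4 in CPCCs only. Slc38a4 was the next gene in mESCs, at 20.6 ± 4.86 RPKM, and was not separable there from Slc6a6.

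CPCC library S04 lay apart from the other CPCC libraries. Over the 32 members tested, the root mean square log2 difference was 0.84 between S04 and S05, 1.00 between S04 and S06 and 0.48 between S05 and S06, and it was 0.45 to 0.57 among the mESC libraries. Over all genes tested these values were 0.71, 0.83 and 0.48 in CPCCs and 0.52 to 0.58 in mESCs. Of the 28 members with a mean of at least 5 CPM in CPCCs, S04 lay over 2-fold above both other libraries for Slc7a11 and Slc38a4 and over 2-fold below both for Slc43a1, Slc6a15 and Slc1a3. S05 and S06 lay over 2-fold apart for Slc7a3 and Slc7a7, both highest in S06. The summed cardiac precursor markers were highest in S04 as well, at 142 CPM beside 48.9 and 62.8 CPM, and their part in these differences was not tested. Without S04, 15 members were called higher and 8 lower.

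**Figure D4:**
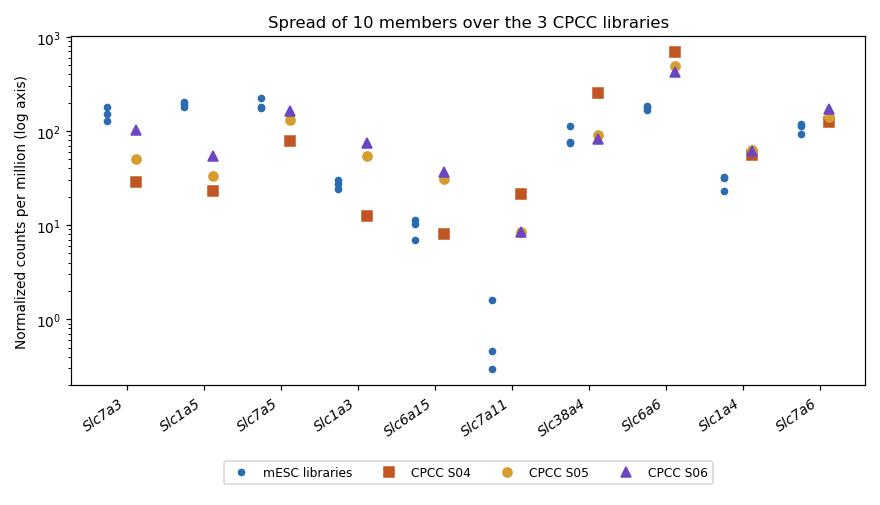
Normalized CPM on a log axis of 10 members chosen after their values were seen, to show how far the 3 CPCC libraries (S04 square, S05 circle, S06 triangle) lie apart beside the mESC libraries (small blue points). S04 is lowest for Slc1a3 and Slc6a15 and highest for Slc7a11 and Slc38a4, and the CPCC libraries of Slc1a4 nearly coincide.

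Other genes of amino acid handling were read from 3 lists. The first held 20 amino acid transporters of other solute carrier families, of which 15 were tested, 6 rose and 6 fell (median log2 fold change -0.10, beside 0.031 over all genes). The shares of 40% higher and 40% lower stand beside 31.7% and 29.7% of all genes. Sfxn3, a mitochondrial relative of the serine carrier Sfxn1, rose from between 17.8 and 23.5 CPM to between 104 and 182 CPM (log2 fold change 2.75, SE 0.25, edgeR adjusted p = 2.56e-05). Slc25a13, the mitochondrial aspartate and glutamate exchanger citrin, fell from between 141 and 201 CPM to between 19.9 and 33.2 CPM (log2 fold change -2.61, SE 0.24, edgeR adjusted p = 2.98e-05). Slc25a29, a mitochondrial carrier of arginine and lysine, rose from between 1.76 and 4.33 CPM to between 7.65 and 12.3 CPM (log2 fold change 1.86, SE 0.46, edgeR adjusted p = 0.00649). The lysosomal exporters Ctns, of cystine, and Slc66a1, listed as Pqlc2, of cationic amino acids, rose as well, with log2 fold changes of 1.12 and 1.08. Slc15a4, also of the lysosome, fell (log2 fold change -0.53, SE 0.18, edgeR adjusted p = 0.0333).

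The amino acid response list held 21 genes that are known to be induced when amino acids run short, all tested, of which 7 rose and 9 fell (median log2 fold change -0.10). Here 33.3% were higher and 42.9% lower, beside the same 31.7% and 29.7% of all genes. Asns, asparagine synthetase, fell from between 1371 and 1592 CPM to between 178 and 269 CPM (log2 fold change -2.67, SE 0.19, edgeR adjusted p = 7.62e-06). Cth, which makes cysteine from cystathionine, fell from between 127 and 133 CPM to between 21.2 and 35.2 CPM (log2 fold change -2.33, SE 0.23, edgeR adjusted p = 4.24e-05). Cebpb, a transcription factor, rose from between 2.05 and 6.18 CPM to between 13.3 and 24.95 CPM (log2 fold change 2.17, SE 0.43, edgeR adjusted p = 0.00218). The genes that fell also include Pycr1 of proline synthesis, Psat1 and Psph of serine synthesis, Shmt2 and Mthfd2 of mitochondrial folate metabolism, Eif4ebp1 and Atf4 itself, with log2 fold changes from -2.003 for Pycr1 to -0.51 for Atf4. Those that rose include Vldlr, Nupr1, Ddit3, Sesn2, Cebpg and Chac1, at 1.07 to 2.06. Slc7a11, Slc7a7 and Slc1a4, the members with the response element shown above, rose in the same comparison, and the activity of ATF4 was not measured.

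The amino acid sensing list held 25 genes of the lysosome and mTORC1, all tested, and most of them did not pass: 3 rose, 4 fell and 18 did not pass (median log2 fold change -0.10). The 28.0% called lies below the 61.4% of all genes, as a description of these genes. Castor2, listed as Gatsl2, which pairs with the arginine sensor Castor1, rose from between 4.39 and 8.34 CPM to between 37.8 and 43.4 CPM (log2 fold change 2.52, SE 0.29, edgeR adjusted p = 8.95e-05). Rragc, a Rag GTPase that recruits mTORC1 to the lysosome, rose from between 48.4 and 55.1 CPM to between 117 and 158 CPM (log2 fold change 1.49, SE 0.18, edgeR adjusted p = 0.000133). Rragd, its close relative, fell from between 50.3 and 69.9 CPM to between 14.6 and 39.8 CPM (log2 fold change -0.98, SE 0.35, edgeR adjusted p = 0.0352). Castor1, listed as Gatsl3, fell, at a log2 fold change of -0.92. Lamtor5 and Itfg2 fell as well and Rraga rose, at -0.84, -0.78 and 0.69. Without mESC library S01, 2 genes of the list were lower. Mtor and Rptor had log2 fold changes of -0.41 and -0.13 and did not pass.

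**Figure D5:**
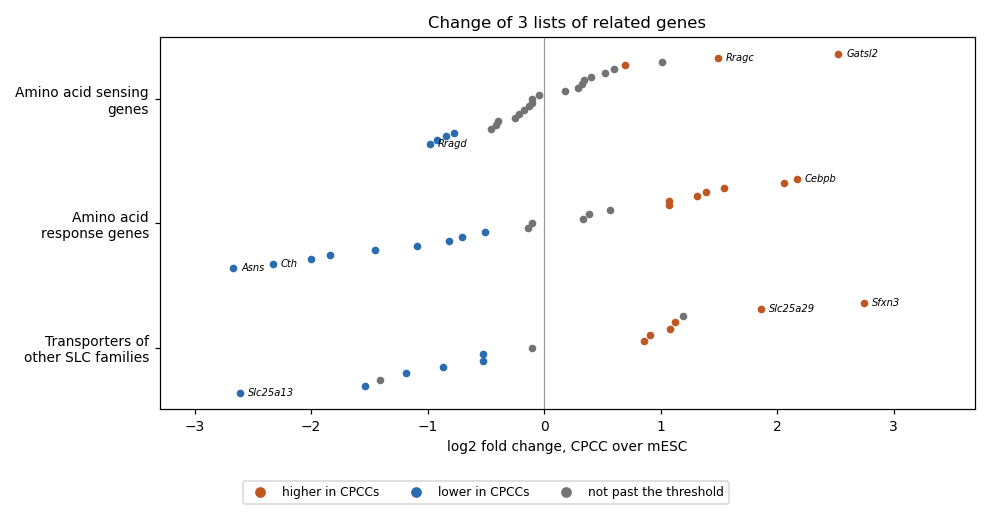
Log2 fold change of CPCCs over mESCs for the tested genes of the 3 lists, a point per gene, ordered within a list and coloured by call, with the 3 largest called changes of each list named. The sensing genes crowd around 0, and the response genes spread from Asns at -2.67 to Cebpb at 2.17.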

How the data were processed

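Bulk RNA of mESCs and CPCCs was sequenced from 3 libraries each. For each cell type the authors deposited 1 table of estimated counts per gene, without normalization. Per the labels, STAR 2.7 and mm10 were used for processing, and the counter is not given in the sources used here. The libraries were made from polyA cDNA with SMART-Seq v4, which does not mark strand. In each library 17.8% to 21.4% of the values were not whole. The lowest sum kept in either table was 10 counts over its 3 libraries, so a gene missing from a table may still have had a few counts.

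Members and lists were chosen with earlier results of these data known. Tables were assigned to cell types by the labels and table names. The columns carry no replicate numbers. As nothing ties libraries to separate cultures beyond the 3 clones, p-values measure the spread between these libraries. Counts were rounded, the 13001 genes in both tables were filtered with filterByExpr, and the 12471 left were fitted with edgeR 4.0.16 (R 4.3.3), TMM and the quasi-likelihood test, with Benjamini-Hochberg adjustment over all of them. SE is the log2 fold change over the square root of F. CPM used TMM-scaled library sizes over the shared genes, and RPKM divides CPM by the union of GENCODE M21 exons in kilobases, which may differ from the authors' gene models. Positions are those of the tables on GRCm38, where the end of many genes is 1 base past that of RefSeq. Genes in 1 table were bounded against 3 counts per library (0.448 CPM in mESCs and 0.335 CPM in CPCCs on average), which covers counting error only. Role lists group the members by known substrate.

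Values per library and full statistics were given, within each role, for up to 4 called members with the largest change, for members in 1 table with a bound of at least 10-fold and for Slc3a2, Slc7a5, Slc7a11, Slc7a1, Slc7a3, Slc1a5, Slc38a2, Slc6a8 and Slc38a9; in each pathway list the 3 called genes with the largest change were named. 1 member is not reported here, in the text or the figures, but stays in the counts and sums. Other members and list genes were named after their values were seen. Alternatives were DESeq2 1.42.0, upper-quartile scaling, no scaling, no filter, at least 10 counts in every library, library sizes over whole tables, a 2-fold threshold, missing genes at 0 or 3 counts and leaving out each library. The fits were tested on simulated counts. Promoter windows came from RefSeq tables (GRCm38.p6). Figures used matplotlib 3.10.9.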

Additional observations from a re-analysis of the deposited data

How the results depend on the processing

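Directions of the 20 members called held under each alternative that gave a value, which was all 15 for 16 members and 14 for Slc1a1, Slc36a4, Slc7a2 and Slc7a11, left out by the filter of at least 10 counts in every library. In these fits 14 of the 20 kept their call except at the 2-fold threshold, where Slc3a2, Slc7a1 and Slc38a1 do not reach 2-fold. Leaving out each library gave 10 to 15 members higher and 5 to 8 lower (5 without mESC library S02), a median log2 fold change of 0.04 to 0.51 (0.039 without S04) and 2 to 5 sensing genes lower (2 without S01). The median was 0.21 with DESeq2 and 0.24 with no filter, both of which test 34 members. DESeq2 called 13 members higher and 9 lower. At the 2-fold threshold, 3 of the other solute carriers and 0 of the sensing genes were lower in edgeR's test, beside 4 sensing genes with no fold limit and 8 sensing genes at an unadjusted p under 0.05 in either direction. Direction changed only for members that did not pass. Leaving out each library, the log2 fold change of Slc36a1 ran from -0.26 to 0.039 (the latter without S06), of Slc38a10 from -0.26 to 0.039 (without S04, and 0.018 without S06), of Slc38a4 from -0.0033 (without S04) to 0.99 and of Slc7a8 from -1.49 to 0.10 (without S06). Slc38a7 was at -0.0026 with missing genes at 3 counts. The cause was not tested. Over all genes, 6536 to 7895 were called when a library was left out. No paired analysis was possible because the columns of the tables carry no replicate numbers. Slc7a14 had 5 to 15 counts in every library, and Slc7a8 had 15 to 23 counts in mESCs and 47, 12 and 5 in CPCCs, so their differences were measured with little precision.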
